A study of Mus musculus with 56 samples.

Results

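Lights-on closes the feeding window of mice that eat only at night. The comparison described here sets the anterior hypothalamus of 4 night-fed mice killed 4 h after lights-on (ZT4, zeitgeber time counted in hours from lights-on) against that of 4 night-fed mice killed at lights-on (ZT0). All 8 were C57BL/6J females of 9 weeks under 12 h of light and 12 h of darkness, with chow available only in the dark (night-restricted feeding, NRF) for the last 7 days. They belong to a series of 56 mice, with 4 mice at each of 7 time points in each of 2 regimens. The other regimen, day-restricted feeding (DRF), offered food only in the light, so its mice were fed over the same 4 h in which the NRF mice were not. The sequenced material was bulk poly(A) RNA of the dissected region, and a single level per gene and mouse was available for 17564 genes, of which 15992 could be tested. In such samples fewer cells of a type and less RNA per cell cannot be told apart. The same 4 h bring light, sleep onset and the end of feeding together, and within NRF these cannot be told apart either.

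The anterior hypothalamus holds the suprachiasmatic nucleus, the light-entrained pacemaker of mammals, beside neurons that control body temperature, sleep, hormone release and feeding. In the pacemaker's molecular loop, CLOCK and BMAL1 (encoded by Arntl) drive the Per, Cry and Nr1d genes and output factors such as Dbp, and the products of the Per, Cry and Nr1d genes act back as repressors. Nocturnal mice cool and fall asleep as the light period begins, and heat shock and cold-inducible genes are known to follow brain temperature, while immediate early genes are known to follow neuronal activity and waking.

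Levels are given as CPM, reads scaled to the normalized library size, and changes as differences of log2(CPM + 1), each with the standard error (SE) of the fit. The normalized library sizes of the 8 mice were 31127102 to 33021661 reads. The correlation of log2(CPM + 1) across genes was 0.995 to 0.998 within a group and 0.995 to 0.998 between the groups, and the median SE of a gene's change was 0.0672. The defining genes of the region were present in all 8 mice, with 219 to 349 CPM for Oxt, 136 to 317 for Avp, 12.2 to 16.5 for Vip and 15.7 to 20.1 for Sim1. Of the pituitary hormones, Gh and Prl were at or near 0, at most 0.0946 CPM for Gh and 0.252 for Prl. The 7 pituitary markers, which include the arcuate gene Pomc, summed to 38.1 to 54.0 CPM at ZT0 and 39.4 to 42.8 at ZT4. ZT4 replicate 2 stood apart from the other 7 mice on the first principal component, and ZT4 replicate 1 lay nearest to the ZT0 mice. Blood markers summed to 303 to 463 CPM at ZT0 and 237 to 303 at ZT4, striatal markers to 344 to 657 and 302 to 475, and thalamic and cortical markers to 132 to 157 and 108 to 351. No member of these 3 lists passed the threshold (limma), and 1 of their members, a thalamic and cortical one, had an unadjusted p under 0.05. The mean levels of all 6 blood markers and all 8 striatal markers were nevertheless lower at ZT4, with median log2 changes of -0.42 and -0.31, and those of 5 of the 8 thalamic and cortical markers were higher, with a median of 0.20. Among astrocyte, microglial, vascular, choroid plexus, pituitary, arcuate and anterior hypothalamic markers 0 passed as well, with 2, 1, 1, 0, 0, 0 and 0 at an unadjusted p under 0.05. For all genes that share was 13.8%. The part of other tissue in the results below was not tested.

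Few genes passed the threshold over these 4 h. At an adjusted p under 0.05 (limma, Benjamini-Hochberg adjusted over the 15992 genes), 9 genes rose (0.0563%) and 5 fell (0.0313%), together 0.0875%. A further 98 genes had an adjusted p from 0.05 to 0.1, and at an unadjusted p under 0.05 there were 2214 genes (13.8%), 1063 higher and 1151 lower at ZT4. The 4 ZT4 values lay entirely above the 4 ZT0 values for 649 genes and entirely below them for 739, together 8.68% of the genes tested. The count of 14 depended on single mice. It was 106 without ZT4 replicate 1, 4 without ZT4 replicate 2 and 5 without ZT4 replicate 4, and it was 2 without ZT0 replicate 1 and 2 without ZT0 replicate 3. Nr1d1 passed in 22 of 22 alternative analyses and ID102640444 in 20 of 21, while the other 12 genes passed in 11 to 17.

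Among these 14 genes the largest change on the log2 scale was in ID102640444, listed by an NCBI identifier and without a symbol or position in the tables used here. Its level was 1.19, 1.36, 1.59 and 1.74 CPM in the ZT0 mice and 4.47, 4.88, 3.15 and 3.66 CPM in the ZT4 mice. The ZT4 mice were all above the ZT0 mice, and the log2 change was 1.02 (SE 0.114, limma adjusted p = 5.43e-05). A second gene without a symbol, ID105244832, went from 29.6 ± 1.61 to 41.1 ± 6.71 CPM (SD, n = 4 each), a log2 change of 0.45.

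Nr1d1, which encodes the clock repressor REV-ERBalpha, was the clearest named gene. It lies on the minus strand at chr11:98767932-98775377 (GRCm38). The ZT0 mice had 70.0, 69.1, 76.8 and 81.0 CPM, and the ZT4 mice 114, 112, 117 and 116 CPM. The groups were far apart and the ZT4 mice were close to each other, with a log2 change of 0.62 (SE 0.0727, limma adjusted p = 7e-05), or 1.54-fold. Nr1d1 shares 263 exon bases with Thra on the opposite strand, and whether the library kept the strand is not given in the sources used here, so reads there cannot be told apart. Thra, a thyroid hormone receptor gene, had a log2 change of -0.00 (SE 0.06, limma adjusted p = 0.998).

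The other genes that rose have varied known roles. Heyl, a transcriptional repressor downstream of Notch, went from 25.5, 23.9, 22.4 and 27.2 CPM to 35.4, 39.2, 32.2 and 38.5 CPM, a log2 change of 0.53 (SE 0.0904). Atp4a, the catalytic subunit of the gastric proton pump, was low at 0.977 ± 0.170 CPM at ZT0 and 1.73 ± 0.298 at ZT4, a log2 change of 0.47. Gpr146, an orphan receptor, changed least among them, from 21.8 ± 0.649 to 26.7 ± 0.242 CPM, a log2 change of 0.28 that stood far outside the spread of either group. Pigz, which adds a mannose to the glycosylphosphatidylinositol anchor, rose by 0.37 on the log2 scale. Amdhd2, which deacetylates N-acetylglucosamine 6-phosphate, rose by 0.31, and Cercam, named as a cerebral endothelial adhesion molecule, by 0.36. Cercam shares 348 exon bases with a gene on the opposite strand and Pigz 193 with one on the same strand, and reads there cannot be told apart. The limma adjusted p of these 6 genes was between 0.0163 for Heyl and 0.0314 for Cercam.

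The 5 genes that fell also have varied known roles. Uba6, an activating enzyme for ubiquitin, was at 36.3, 33.3, 38.0 and 34.5 CPM at ZT0 and at 30.3, 22.3, 28.4 and 25.1 CPM at ZT4, a log2 change of -0.41 (SE 0.0804). Fxr1, an RNA-binding protein of the fragile X family, went from 95.3 ± 5.48 to 77.3 ± 5.37 CPM, a log2 change of -0.30. Ints8, a subunit of the Integrator complex that cleaves nascent RNA, fell by 0.32 on the log2 scale, and Dnajc28, a DnaJ-domain protein, by 0.34. Ints8 shares 609 exon bases with Ccne2 and Fxr1 shares 178 with Dnajc19, each on the opposite strand, so reads there cannot be told apart either. Zfp882, a zinc finger gene, had a log2 change of -0.42 and shares 104 exon bases with the neighbouring zinc finger gene Zfp617 on the same strand. The limma adjusted p of these 5 genes was between 0.0163 for Dnajc28 and 0.0314 for Uba6, and in each of them all ZT4 mice were below all ZT0 mice.

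**Figure D1:**
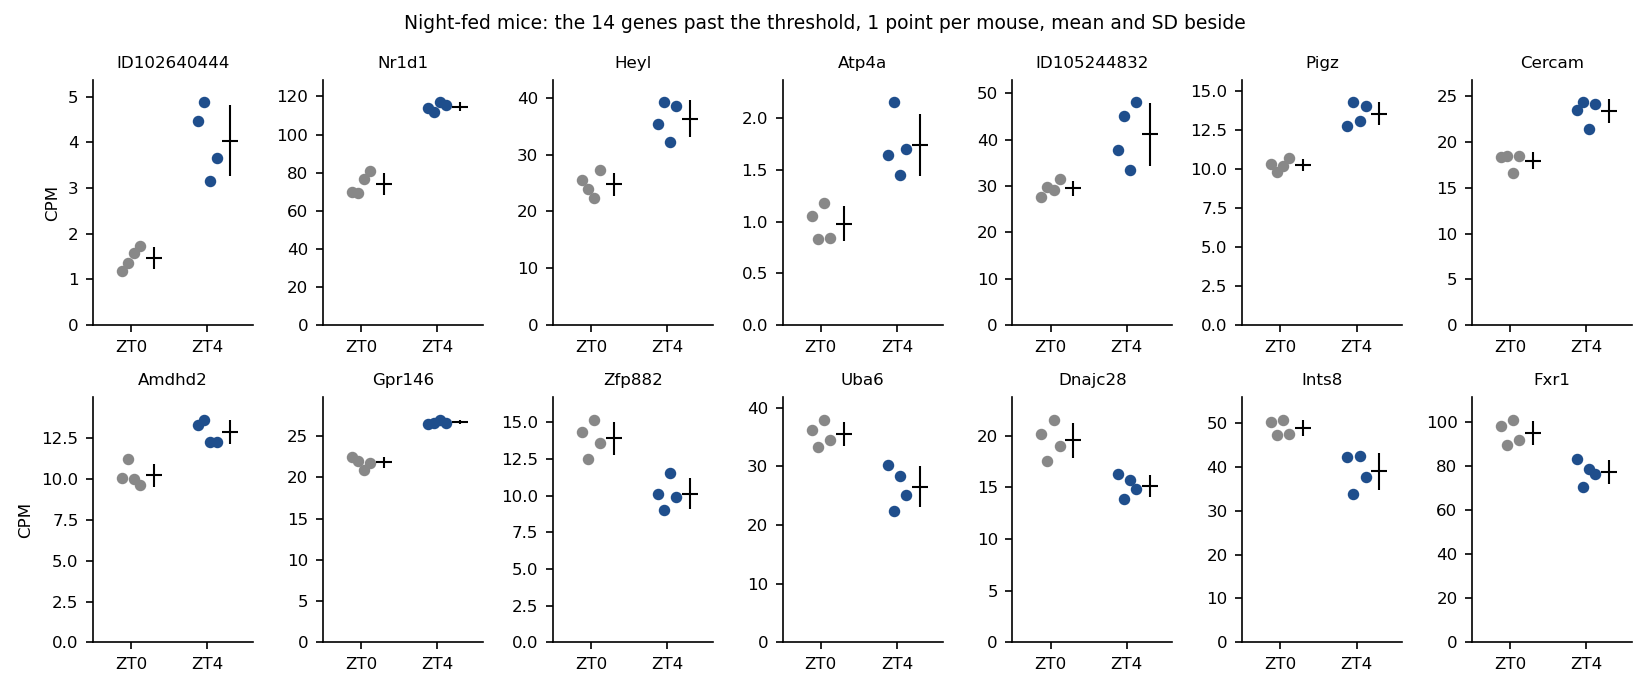
Levels in CPM (vertical axes, from 0) of the 14 genes past the threshold in the night-fed mice at ZT0 (grey) and ZT4 (blue), 1 point per mouse, with the group mean and SD beside the points. The groups do not overlap in any panel, and the rise is largest for ID102640444, with a log2 change of 1.02.

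The 14 genes were also read in other groups of mice. The NRF comparisons that follow are not independent of the comparison that chose the genes. The DRF change compares mice that took no part in that choice, although its estimate of the spread also used the NRF mice. Against the 4 NRF mice at ZT24, also killed at lights-on, all 14 passed the threshold in the same direction, and 13 of 14 did so from ZT0 to ZT8. Of all genes, 30.5% and 6.47% passed in these 2 comparisons, in either direction. The first set shares the ZT4 mice and the second the ZT0 mice with the comparison above. The exception at ZT8 was Cercam, with a log2 change of 0.18 (limma adjusted p = 0.121). In DRF, where 6.26% of all genes passed from ZT0 to ZT4, 1 of the 14 changed in the same direction past the threshold, which was Nr1d1. In the opposite direction 2 changed, which were Atp4a (log2 change -0.33) and Amdhd2 (-0.23). Nr1d1 in the DRF mice went from 87.7 ± 5.28 to 111 ± 5.15 CPM, a log2 change of 0.34 (limma adjusted p = 0.00586), and the difference between the regimens of 0.28 did not pass the threshold (SE 0.112, limma adjusted p = 0.151).

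Few clock genes changed over these 4 h. Of 20 clock and clock output genes, 1 rose (Nr1d1), 0 fell and 19 did not pass the threshold (limma), against 0.0875% of all genes. Their median log2 change was -0.01, and that of all genes tested was -0.00. At an unadjusted p under 0.05, 4 were higher and 3 lower, against 6.65% and 7.2% of all genes. Dbp, a D-box activator and direct output of CLOCK and BMAL1, had 35.8, 44.0, 42.7 and 41.1 CPM at ZT0 and 46.4, 58.0, 52.5 and 49.0 at ZT4. The groups of Dbp did not overlap, with a log2 change of 0.32 (SE 0.0823, limma adjusted p = 0.0968), and by ZT8 it stood at 92.1 ± 4.29 CPM, 1.15 above ZT0 on the log2 scale (limma adjusted p = 6.29e-09). Dbp shares 539 exon bases with Sphk2 on the opposite strand, from which its reads there cannot be told apart.

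Among the activators, Clock was at 97.9 ± 0.796 CPM at ZT0 and 84.7 ± 8.44 at ZT4 (log2 change -0.21, limma adjusted p = 0.156), with ZT4 replicate 2 the lowest at 72.2 CPM. Arntl differed by -0.09 (limma adjusted p = 0.421). Among the repressors, the log2 differences were -0.04 for Per1, -0.13 for Per2, 0.10 for Per3 and -0.22 for Cry1, with limma adjusted p-values of 0.87, 0.294, 0.385 and 0.175. Ciart, which encodes the repressor CHRONO, differed by 0.18 and Bhlhe40, which encodes DEC1, by 0.16, neither past the threshold (limma adjusted p = 0.331 and 0.353). The regimens differed in 2 of the 20 genes, against 5.03% of all genes. These were Ciart, with an NRF change minus DRF change of 0.53 (SE 0.132, limma adjusted p = 0.0112), and Dbp, with 0.44 (SE 0.13, limma adjusted p = 0.0341). The call for Dbp was lost without any 1 of 7 of the 16 mice, NRF ZT4 replicates 2 and 3 among them, with limma adjusted p-values up to 0.11.

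The mean levels of the heat shock genes were lower at ZT4 than at ZT0 in NRF, and those of 22 of 23 were higher at ZT4 in DRF. The list holds 23 cytosolic and mitochondrial chaperones, their co-chaperones and the heat shock factors Hsf1 and Hsf2. In NRF, 0 of the 23 passed the threshold (limma, smallest adjusted p 0.0585), 15 were lower at an unadjusted p under 0.05 against 7.2% of all genes, and 0 were higher. All 23 differences were below 0, with a median of -0.17 and a range from -0.76 to -0.05, and the 4 ZT4 mice lay entirely below the ZT0 mice in 10 of 23, against 4.62% of all genes. The count past the threshold in NRF was 3 without ZT4 replicate 1 and 6 with each library's trends removed. In DRF, where 6.26% of all genes passed, 13 of the 23 rose and 0 fell, against 3.59% and 2.67% of all genes, with a median log2 change of 0.24. The test of the difference itself passed the threshold for 15 of the 23, all with a more negative change in NRF, against 2.85% of all genes in that direction. That count was 14 without NRF ZT4 replicate 2. The 6 blood markers had medians of the same signs, -0.42 in NRF and 0.48 in DRF, with 0 past the threshold in either regimen or for the difference (limma). In the DRF mice they summed to 341 to 957 CPM at ZT0 and 491 to 2380 CPM at ZT4, and whether blood has a part in the differences between the regimens was not tested.

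The inducible Hsp70 gene Hspa1b had the largest differences of the list. It had 8.40, 5.71, 9.92 and 7.90 CPM in the NRF mice at ZT0 and 5.28, 3.70, 4.98 and 3.20 at ZT4, while the DRF mice had 3.58, 8.18, 5.25 and 4.69 CPM at ZT0 and 16.6, 9.30, 15.0 and 22.6 at ZT4. The NRF groups did not overlap and neither did the DRF groups, in opposite order. The log2 change was -0.76 in NRF (SE 0.165, limma adjusted p = 0.0585) and 1.38 in DRF (limma adjusted p = 0.000225), a difference of -2.14 (SE 0.329, limma adjusted p = 5.13e-05). Its neighbour Hspa1a differed by -0.43 in NRF and rose by 0.60 in DRF, a difference of -1.04 (SE 0.202, limma adjusted p = 0.00102). The 2 genes encode nearly identical proteins, and how reads were divided between them is uncertain.

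The more abundant Hsp110 gene Hsph1, a nucleotide exchange factor for Hsp70, had 508, 408, 428 and 407 CPM in NRF at ZT0 and 389, 317, 368 and 349 at ZT4. In DRF it had 284, 317, 298 and 329 CPM at ZT0 and 377, 351, 408 and 407 at ZT4. The regimens were thus apart at ZT0 and overlapped at ZT4, with log2 changes of -0.30 (limma adjusted p = 0.0968) and 0.33 (limma adjusted p = 0.00345) and a difference of -0.62 (SE 0.102, limma adjusted p = 0.000133). Chordc1, an Hsp90 co-chaperone, went from 98.7 ± 16.2 to 70.4 ± 10.1 CPM in NRF and from 56.2 ± 8.26 to 85.1 ± 8.40 CPM in DRF, a difference of -1.08. Dnajb1, an Hsp40 that loads clients onto Hsp70, differed by -0.71 between the regimens, Stip1, which joins Hsp70 to Hsp90, by -0.55, the small heat shock protein gene Hspb1 by -1.06 and Hsf1, the main heat shock factor, by -0.48, with limma adjusted p-values from 9.83e-05 for Stip1 to 0.0114 for Hspb1. Hsp90aa1, the inducible Hsp90, was lower at ZT4 in all 4 NRF mice (log2 change -0.21, limma adjusted p = 0.172), and its difference of -0.26 between the regimens did not pass (SE 0.131, limma adjusted p = 0.291).

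**Figure D2:**
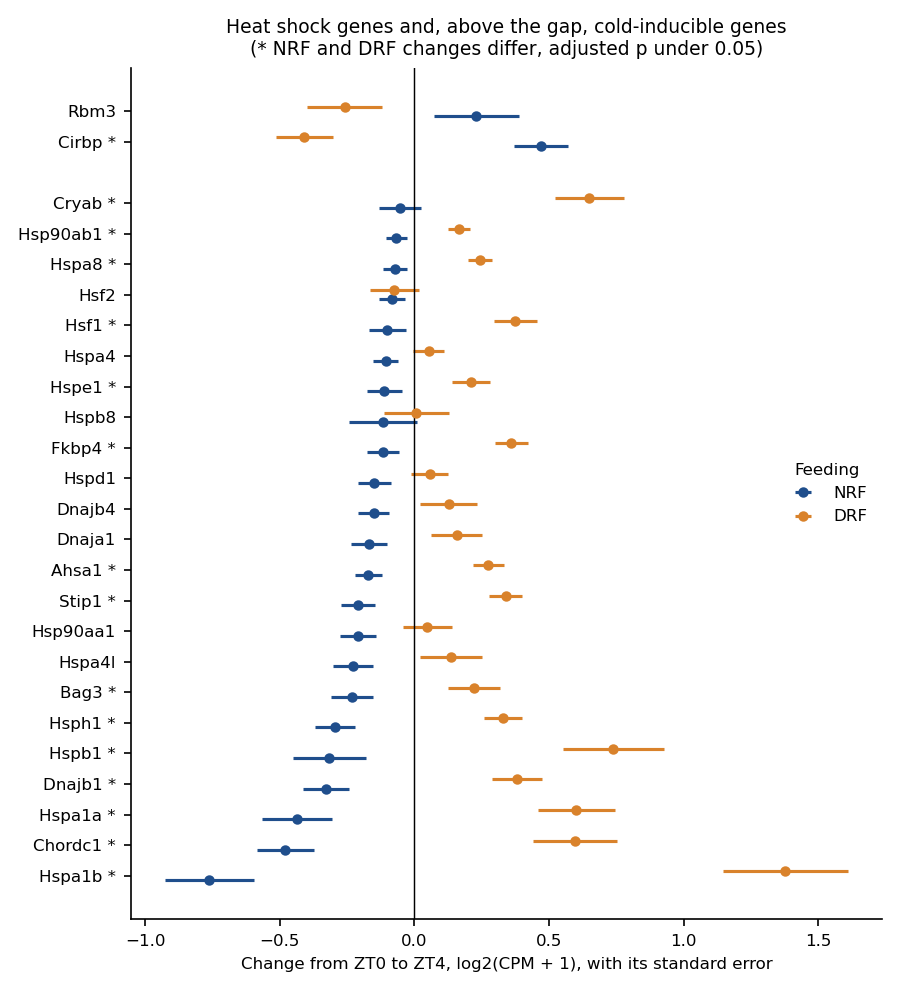
Log2(CPM + 1) change from ZT0 to ZT4 (horizontal axis) with its standard error for 23 heat shock genes and, at the top, Cirbp and Rbm3, in NRF (blue) and DRF (orange), from the fit with 4 mice per group. All 23 NRF points of the heat shock genes lie below 0 and 22 of 23 DRF points lie above it, with Hspa1b farthest apart at -0.76 and 1.38; stars mark genes whose NRF and DRF changes differ.

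The 2 cold-inducible genes had differences of the opposite sign. Cirbp, an RNA-binding protein induced by mild cooling, had 46.4, 65.0, 53.1 and 64.6 CPM in NRF at ZT0 and 69.0, 104, 69.6 and 77.8 at ZT4. The NRF groups did not overlap (log2 change 0.47, SE 0.1, limma adjusted p = 0.0585). In DRF it went from 98.7 ± 10.6 to 74.1 ± 7.24 CPM, and the difference between the regimens was 0.88 (SE 0.149, limma adjusted p = 0.000233). Its relative Rbm3 had log2 differences of 0.23 in NRF and -0.26 in DRF, and the difference of 0.49 did not pass (limma adjusted p = 0.155).

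Promoter sequence was read for the heat shock genes. The list was made of known heat shock genes, so a high share of heat shock cores can follow from that choice alone. Heat shock factors bind repeats of a short inverted element, for which the core GAANNTTC or TTCNNGAA was searched on both strands in the 250 bases before each start (RefSeq, GRCm38.p6). A promoter was matched for 18 of the 23 genes, and 9 of them (50%) held a core, against 12.3% of the 12664 tested genes with a matched promoter and 14.5% of all 27025 promoters of the RefSeq table. The other 9 held none. The regimens differed past the threshold for 15 of all 23 genes of the list, and for a similar share of those with a core. The core was present in 6 of the genes whose regimens differed past the threshold and in 3 whose regimens did not. The promoters of 3 of the former are shown, chosen after their values were seen, with the core in capitals and each read 5′ to 3′ towards the start. All 3 lie on the minus strand, at chr17:34959239-34959488 for Hspa1b, chr17:34972157-34972406 for Hspa1a and chr5:149636337-149636586 for Hsph1.
Hspa1b: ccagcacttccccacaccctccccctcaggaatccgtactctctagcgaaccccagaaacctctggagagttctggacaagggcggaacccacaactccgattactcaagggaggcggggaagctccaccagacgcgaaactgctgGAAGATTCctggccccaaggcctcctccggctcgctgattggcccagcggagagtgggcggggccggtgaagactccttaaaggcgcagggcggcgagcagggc
Hspa1a: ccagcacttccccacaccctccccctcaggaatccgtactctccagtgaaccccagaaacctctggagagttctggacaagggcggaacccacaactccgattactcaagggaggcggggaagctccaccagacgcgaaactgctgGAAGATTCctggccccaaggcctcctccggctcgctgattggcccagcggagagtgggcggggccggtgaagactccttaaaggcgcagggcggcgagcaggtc
Hsph1: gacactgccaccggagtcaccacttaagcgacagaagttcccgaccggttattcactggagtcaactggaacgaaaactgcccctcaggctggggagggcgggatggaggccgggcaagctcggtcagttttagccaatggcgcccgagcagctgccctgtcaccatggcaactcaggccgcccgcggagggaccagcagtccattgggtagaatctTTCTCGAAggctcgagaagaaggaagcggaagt
The Hspa1a and Hspa1b windows were identical at 247 of 250 bases and held their core from 104 bases before the start, while that of Hsph1 began 33 bases before it. Hsph1 has a second listed start, not shown, with the same core from 54 bases before it and an E-box CACGTG from 19 bases before it. In the clock list, 0 of 17 matched promoters held this core and 5 of 17 (29.4%) held the E-box CACGTG, against 9.34% of the tested genes' promoters and 6.86% of all in the RefSeq table. The corresponding window of Nr1d1 held none of the motifs searched, which besides these were the D-boxes TTATGTAA, TTACGTAA and TTATGCAA, the ROR and REV-ERB element TAGGTCA and the cyclic AMP element TGACGTCA. A match is a description of the letters in this window only. The clock list too was made of known clock genes, so neither list's share of motifs bears on the changes from ZT0 to ZT4.

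Chaperones of the endoplasmic reticulum also differed between the regimens. Of 20 genes, 0 passed the threshold in NRF (limma, smallest adjusted p 0.137), and at an unadjusted p under 0.05 there were 3 lower and 1 higher, against 7.2% and 6.65% of all genes, with a median of -0.06. In DRF, 10 rose and 0 fell, against 3.59% and 2.67% of all genes, and the regimens differed for 11 of 20, all more negative in NRF, against 2.85% in that direction. Sdf2l1, a cofactor of the Hsp70 BiP, had 13.6, 10.1, 11.8 and 10.1 CPM in NRF at ZT0 and 11.8, 8.54, 9.92 and 9.51 at ZT4, so that the NRF groups overlapped. In DRF the same gene had 7.04, 7.16, 7.04 and 7.29 CPM at ZT0 and 13.4, 12.8, 13.1 and 15.0 at ZT4, without overlap and with a difference between the regimens of -1.02 (SE 0.149, limma adjusted p = 3.71e-05). Pdia4, a disulfide isomerase, differed by -0.71, Creld2, a secreted stress marker of this compartment, by -0.80 and Hspa5, which encodes BiP, by -0.46, with limma adjusted p-values of 4.14e-05, 0.000312 and 0.0106. Hsp90b1, the Hsp90 of this compartment, was lower in all 4 ZT4 mice in NRF (log2 change -0.20, limma adjusted p = 0.137), without a difference past the threshold (-0.27, limma adjusted p = 0.151).

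Immediate early genes, which are switched on soon after neuronal firing, had lower mean levels at ZT4 in 18 of 22 members, none past the threshold. Of the 22 genes, 0 passed (limma, smallest adjusted p 0.0697) and 10 were lower and 0 higher at an unadjusted p under 0.05, against 7.2% and 6.65% of all genes. The median log2 change was -0.21, and the blood and striatal markers were lower as well, at medians of -0.42 and -0.31, whose part in this was not tested. Nr4a3, a nuclear receptor, had 10.6, 10.9, 18.4 and 16.1 CPM at ZT0 and 7.00, 6.48, 9.51 and 7.26 at ZT4, and Fosl2, a partner of JUN, had 15.5, 15.5, 22.8 and 23.0 CPM at ZT0 and 13.0, 11.6, 11.3 and 12.6 at ZT4. Neither gene's groups overlapped, with log2 changes of -0.79 (SE 0.188) and -0.60 (SE 0.142) and a limma adjusted p of 0.0697 for each. ZT0 replicates 3 and 4 were the highest mice for both.

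Fos itself had 11.9, 13.8, 22.5 and 22.0 CPM at ZT0 and 6.87, 6.54, 8.22 and 13.6 at ZT4. Its groups overlapped through ZT4 replicate 4 (log2 change -0.92, SE 0.35, limma adjusted p = 0.24). Egr1 and Nr4a1 differed by -0.54 and -0.47 (limma adjusted p = 0.36 and 0.235). Against the ZT24 mice the same list gave a median of -0.01, with 1 gene higher and 3 lower past the threshold, against 15.0% and 15.5% of all genes. Fos was at 9.26 ± 1.12 CPM in those mice. The difference between the regimens passed the threshold for 0 of the 22 genes (limma), and in DRF Fos went from 19.2 ± 7.70 to 10.1 ± 1.98 CPM, a log2 change of -0.79 that did not pass (limma adjusted p = 0.19).

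The list of cholesterol and fatty acid synthesis genes had higher mean levels at ZT4 in 24 of 32 members in NRF. Of the 32 cholesterol and fatty acid synthesis genes tested, 0 passed the threshold in NRF (limma, smallest adjusted p 0.0968), and at an unadjusted p under 0.05 there were 9 higher and 1 lower, against 6.65% and 7.2% of all genes. Their median log2 change was 0.07. In DRF, 8 fell and 0 rose, against 2.67% and 3.59% of all genes, and the regimens differed for 8 of 32, all more positive in NRF, against 2.18% of all genes in that direction. Insig1, which retains the sterol sensor in the endoplasmic reticulum and is itself induced by SREBP, had 86.9, 74.6, 71.0 and 78.0 CPM in NRF at ZT0 and 83.9, 106, 90.7 and 113 at ZT4. ZT4 replicate 1 overlapped the ZT0 mice, with a log2 change of 0.33 (SE 0.085, limma adjusted p = 0.0968).

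In DRF Insig1 went from 96.4 ± 2.99 to 65.7 ± 4.90 CPM, and the difference of 0.88 passed the threshold (SE 0.133, limma adjusted p = 4.14e-05). Mvd, an enzyme of the mevalonate steps, differed between the regimens by 0.64 and Dhcr7, the last step to cholesterol, by 0.38, with limma adjusted p-values of 0.00478 and 0.028. The call for Dhcr7 was lost without any 1 of 6 of the 16 mice, NRF ZT4 replicates 2 and 4 among them, with limma adjusted p-values up to 0.0893. In NRF Mvd and Dhcr7 had log2 differences of 0.25 and 0.21, neither past the threshold (limma adjusted p = 0.152 and 0.142). Elovl6, which lengthens fatty acids, was the member lower in NRF at an unadjusted p under 0.05 (log2 difference -0.15, limma adjusted p = 0.278).

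The glucocorticoid list held 19 genes, namely targets of the corticosteroid receptors and the receptor genes Nr3c1 and Nr3c2 themselves. In NRF 0 of the 19 passed the threshold (limma), with a median log2 change of -0.05. At an unadjusted p under 0.05, 2 were higher, against 6.65% of all genes. Hif3a, a hypoxia-inducible factor subunit, had 3.67, 2.28, 2.11 and 3.68 CPM in NRF at ZT0 and 9.93, 4.91, 6.46 and 4.66 at ZT4. The groups did not overlap (log2 change 0.90, SE 0.196, limma adjusted p = 0.0592). In DRF it had 14.5, 10.5, 11.6 and 13.4 CPM at ZT0 and 3.06, 3.60, 3.26 and 3.21 at ZT4, also without overlap and in the opposite order. The difference of 2.56 was the largest positive one among genes past the threshold with a mean log2(CPM + 1) of at least 1 (SE 0.282, limma adjusted p = 1.53e-07). Mt2, a metallothionein, differed by 0.25 in NRF (limma adjusted p = 0.292) and fell by 0.95 in DRF on the log2 scale, a difference of 1.19. In DRF 8 of the 19 fell and 0 rose, against 2.67% and 3.59% of all genes, and the regimens differed for 3, all more positive in NRF, against 2.18% in that direction.

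**Figure D3:**
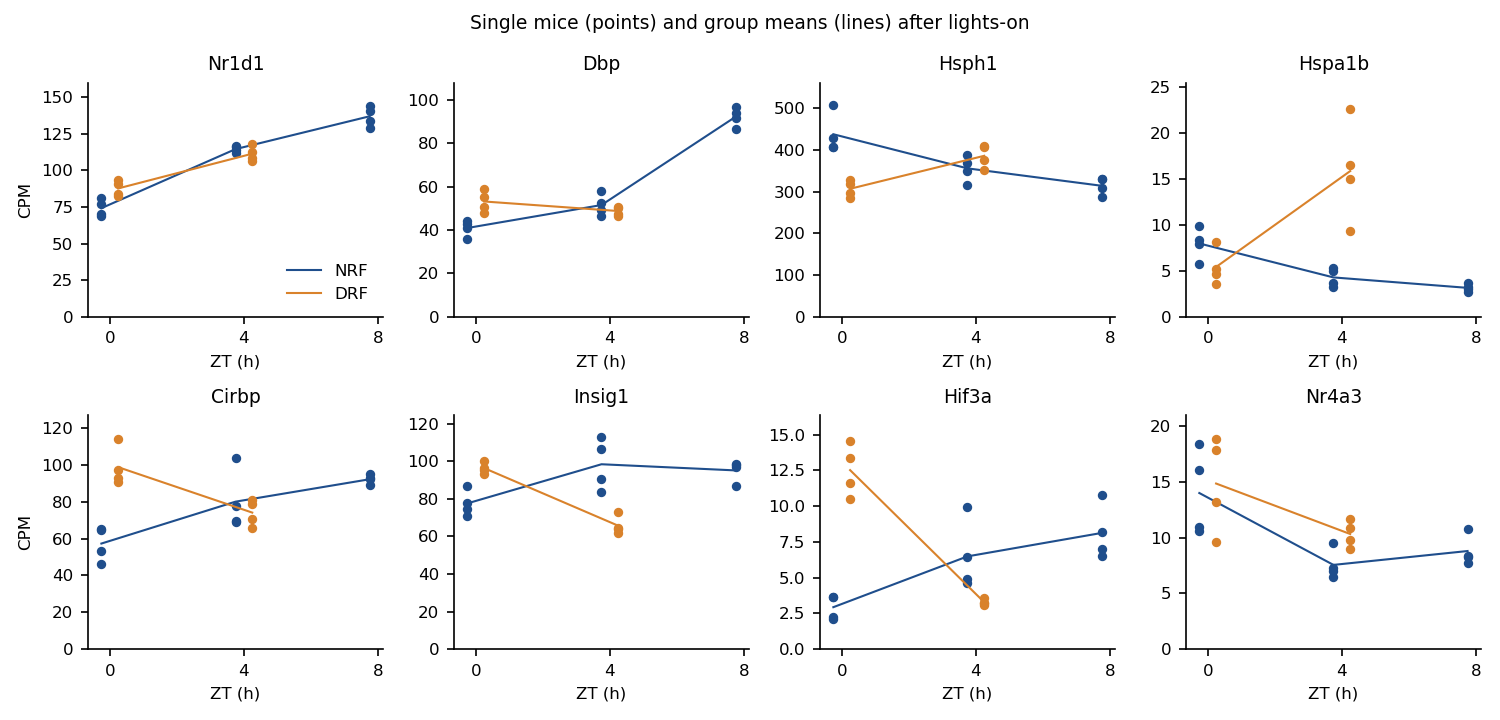
Levels in CPM (vertical axes, from 0) of 8 genes in single NRF mice (blue) at ZT0, ZT4 and ZT8 and single DRF mice (orange) at ZT0 and ZT4, with lines through the group means. Nr1d1 is higher at ZT4 in both regimens, whereas Hsph1 and Hspa1b run down in NRF and up in DRF, and Cirbp, Insig1 and Hif3a run the other way.

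Across all genes, the change from ZT0 to ZT4 differed between the regimens for 805 genes (5.03%, limma), 349 more positive and 456 more negative in NRF. Of these, 344 were above 0 in NRF and below 0 in DRF, and 452 were below 0 in NRF and above 0 in DRF. Choosing genes by a large difference favours opposite signs, and the share of opposite signs over all genes was not counted. The count was 498 without DRF ZT0 replicate 1, 510 without NRF ZT4 replicate 2, and 533 without NRF ZT0 replicate 3. Among the 805 genes, for those with a mean log2(CPM + 1) of at least 1, the largest positive difference after Hif3a was 1.54 for Hr, a nuclear receptor corepressor induced by thyroid hormone, which in NRF had 31.8, 22.5, 23.4 and 28.8 CPM at ZT0 and 43.9, 29.9, 44.2 and 42.0 at ZT4. ZT4 replicate 2 fell within the ZT0 range. In DRF Hr went from 46.3 ± 6.57 to 23.0 ± 0.793 CPM (limma adjusted p of the difference 9.99e-06).

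By the same rule Mt2 followed with 1.19, then Lrrc29, a leucine-rich repeat gene at 0.956 to 2.54 CPM in the 8 NRF mice, with 1.01, ID102640444 with 1.004 and Pla2g4e, a phospholipase of the cytosolic group, with 0.95. On the negative side, after Hspa1b came Zbtb40, a zinc finger gene, with -1.41. It had 14.6, 13.3, 18.3 and 14.7 CPM at ZT0 and 14.8, 7.96, 12.6 and 9.83 at ZT4 in NRF, which overlapped, against 10.3 ± 1.62 and 21.4 ± 1.80 CPM in DRF, which did not. Gm10340 followed with -1.32, although the length behind its level could not be checked, then Mab21l1, a developmental cell fate gene that overlaps Nbea on the opposite strand, with -1.19, Chordc1 and Hspb1. The limma adjusted p of the difference was 2.75e-06 for Zbtb40, 0.036 for Gm10340 and 0.0267 for Mab21l1. The last 2 calls were each lost without any 1 of 7 of the 16 mice, NRF ZT4 replicate 2 and NRF ZT0 replicate 1 among them, with limma adjusted p-values up to 0.111 and 0.102. For the 11 of 14 genes that passed the threshold in NRF and whose regimens also differed, the same NRF change enters both tests, and for Heyl, Uba6 and Ints8 the difference was lost without any 1 of 11, 11 and 8 mice.

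Of 35 SR and hnRNP factors tested, 0 passed the threshold in NRF (limma), with 5 higher and 5 lower at an unadjusted p under 0.05, against 6.65% and 7.2% of all genes. The regimens differed for 7, 5 more positive and 2 more negative in NRF, against 2.18% and 2.85% of all genes. Srsf5, an SR protein of splice site choice, had 221, 229, 184 and 204 CPM in NRF at ZT0 and 229, 245, 225 and 233 at ZT4. The NRF groups of Srsf5 overlapped, since ZT0 replicate 2 reached above ZT4 replicate 3 (log2 change 0.16, SE 0.0667, limma adjusted p = 0.286). In DRF Srsf5 went from 223 ± 16.03 to 172 ± 5.92 CPM, and the difference of 0.53 passed (SE 0.0952, limma adjusted p = 0.000362). Hnrnpm differed the other way, by -0.45 (SE 0.0767, limma adjusted p = 0.000233), with 104 ± 6.76 CPM at ZT0 and 91.1 ± 10.1 at ZT4 in NRF against 85.9 ± 4.37 and 103 ± 4.86 in DRF. Hnrnpm shares 1169 exon bases with a neighbour on the same strand, so its level is less certain.

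The oligodendrocyte markers tested, 9 genes, all had higher mean levels at ZT4. Among them 0 passed the threshold (limma, smallest adjusted p 0.137), the median log2 change was 0.17, and 6 had an unadjusted p under 0.05 against 6.65% of all genes in that direction. The ZT4 mice lay entirely above the ZT0 mice for 4 of the 9, against 4.06% of all genes. Opalin, a paranodal protein of mature oligodendrocytes, went from 19.8 ± 0.820 to 26.4 ± 4.08 CPM without overlap (log2 change 0.39, SE 0.113, limma adjusted p = 0.137). Cnp, Mag and Mog, which encode myelin proteins, had log2 differences of 0.20, 0.25 and 0.23 (limma adjusted p = 0.181, 0.247 and 0.289). The summed level of the list was 3140 to 3660 CPM at ZT0 and 3160 to 4130 CPM at ZT4, and whether the dissected pieces held different amounts of white matter was not tested.

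For amino acid supply, 0 of 19 ATF4 and serine synthesis genes passed (limma), with 5 higher and 2 lower at an unadjusted p under 0.05, against 6.65% and 7.2% of all genes. Slc7a5, the large neutral amino acid transporter, had 57.9, 58.2, 59.7 and 63.3 CPM at ZT0 and 63.1, 75.0, 70.9 and 69.8 at ZT4 (log2 change 0.22, limma adjusted p = 0.137), with a difference between the regimens of 0.41 (limma adjusted p = 0.0041). Phgdh, the first enzyme of serine synthesis, differed by 0.13 (limma adjusted p = 0.181). Of 28 FOXO and fasting-response genes, 0 passed (limma), with 1 higher and 1 lower at an unadjusted p under 0.05. These were Cpt1a, which carries fatty acids into mitochondria and was at 31.7 ± 0.740 CPM at ZT0 and 34.9 ± 1.31 at ZT4, and Sesn3, a FOXO target that restrains mTORC1, at 29.4 ± 5.41 and 22.7 ± 4.35 CPM (limma adjusted p = 0.226 and 0.242).

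In the lists of feeding and hormone signalling genes, 0 passed the threshold (limma). Of 19 feeding peptides and receptors 0 passed (limma), with 3 lower and 0 higher at an unadjusted p under 0.05, against 7.2% and 6.65% of all genes. Npy1r, a receptor of neuropeptide Y, went from 26.1 ± 2.25 to 22.5 ± 1.81 CPM without overlap, and Mc4r, a melanocortin receptor, from 5.40 ± 0.464 to 4.34 ± 0.462 CPM with overlap (limma adjusted p = 0.261 and 0.327). Among 18 suprachiasmatic genes 0 passed (limma), with 1 higher and 1 lower at an unadjusted p under 0.05, against the same shares of all genes. The lower one was Prokr2, the receptor of a pacemaker output peptide, at 12.3 ± 1.57 CPM at ZT0 and 9.20 ± 1.02 at ZT4 (limma adjusted p = 0.287). Of 16 neuroendocrine peptide genes and 16 sleep-wake and preoptic genes, 0 and 0 passed (limma), with 1 and 1 lower and none higher at an unadjusted p under 0.05.

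The large housekeeping lists had medians near 0. For 77 respiratory chain and ATP synthase genes the median log2 change was 0.03, with 0 past the threshold (limma). At an unadjusted p under 0.05, 3 were higher, against 6.65% of all genes. For 75 cytosolic ribosomal protein genes it was 0.03, with 0 and 4. The 31 proteasome subunit genes had a median of 0.05, with 0 and 4. The 4 ZT4 mice lay entirely above the ZT0 mice for 4 of these 31, against 4.06% of all genes. The 23 Hippo pathway genes, which restrain growth through YAP and TAZ, had a median of -0.07. The 37 ion channel genes had a median of -0.04, and 0 of either list passed (limma). At an unadjusted p under 0.05, 5 Hippo genes and 3 ion channel genes were lower, against 7.2% of all genes.

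**Figure D4:**
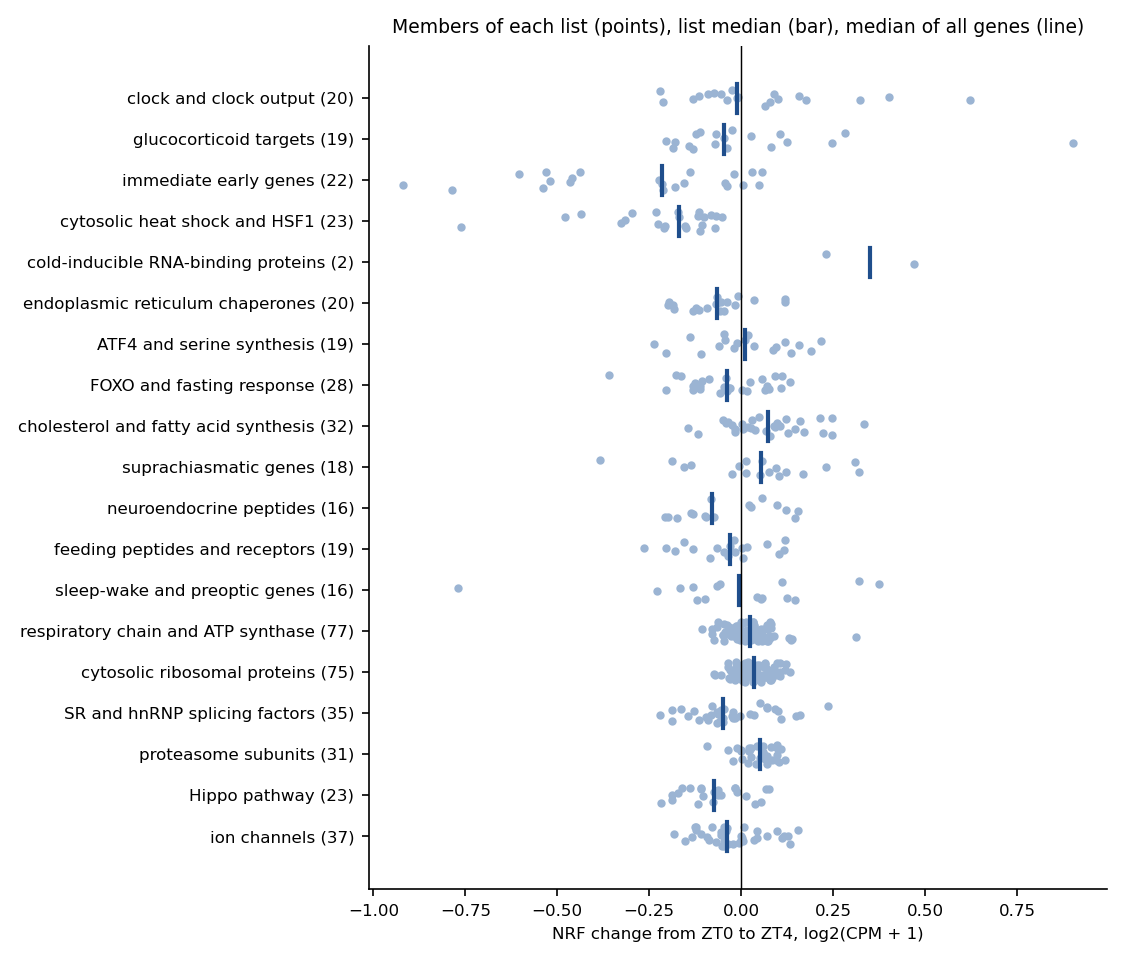
NRF change from ZT0 to ZT4 in log2(CPM + 1) (horizontal axis) for each tested member of 19 lists (points, number of members in brackets), with the list median (bar) and the median of all genes (vertical line). The 23 heat shock genes all lie below 0 with a median of -0.17, the immediate early genes have a median of -0.21, and the respiratory chain and ribosomal lists stay close to the line.

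Lights-on was sampled a second time at ZT24, in 4 other NRF mice, which share no mouse with the ZT0 group. Against ZT24, 4876 genes passed the threshold at ZT4 (30.5%, limma), 2403 higher (15.0%) and 2473 lower (15.5%), and the ZT24 mice themselves differed from the ZT0 mice in 1440 genes (9.0%). The ZT4 mice enter both comparisons, and without ZT4 replicate 2 the count against ZT24 was 3072. On the scale of the deposited values the same comparison gave 1211 higher and 3580 lower. Heat shock genes had a median of -0.18 against ZT24 with 13 of 23 lower, and Nr1d1 had a log2 change of 0.60 (limma adjusted p = 4.32e-05). The respiratory chain list, at a median of 0.03 against ZT0, had 0.20 against ZT24 with 52 of 77 higher, and the ribosomal protein list 0.22 with 56 of 75 higher. Splicing factors had a median of -0.03 with 5 higher and 6 lower, and ion channels one of -0.16 with 2 higher and 16 lower.

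From ZT0 to ZT8, 1035 genes passed (6.47%, limma), 479 higher (3.0%) and 556 lower (3.48%), in mice that share only the ZT0 group with the comparison. Heat shock genes then had a median of -0.29 with 18 of 23 lower. The chaperones of the endoplasmic reticulum had one of -0.21 with 11 of 20 lower. For the cholesterol and fatty acid synthesis list it was 0.04, with 5 higher and 1 lower. In the clock list 6 had risen and 3 had fallen by ZT8. Hspa1b stood at 3.15 ± 0.382 CPM, Hsph1 at 314 ± 20.3 and Cirbp at 92.2 ± 2.46, each mean farther from that at ZT0 than the ZT4 mean was. Nr4a3 was at 8.81 ± 1.36 CPM and Fos at 12.8 ± 7.40 CPM at ZT8.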

How the data were processed

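The members of the comparison and the gene lists were chosen with earlier results of these data known. Per the study's methods, after cleaning with SOAPnuke the authors mapped reads to GRCm38.p6 (HISAT2) and to the coding genes (Bowtie2), counted with RSEM, normalized by TMM in edgeR and deposited 1 score per gene and mouse, named TPM. The deposited score is compressed: each value follows log2(CPM + 1) over a length, scaled to a nearly constant library total, with a median relative deviation of 2.07e-08 from the predicted steps in 1146 genes with few reads. Undoing this with GENCODE exon lengths, or with a length found from the read steps, gave log2(CPM + 1) for 17175 genes. In 15344 genes the values resolved into whole reads, 99.5% of values lying within 0.1 of one. The other 389 genes had no usable length and were not analysed here. Intervals and p-values rest on 4 mice per group.

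The study's filter was kept (a deposited value of 1 or more in 80% of all mice). The test was limma 3.58.1 in R 4.3.3 on log2(CPM + 1), with 1 mean per time point and regimen. NRF changes were fitted over the 28 NRF mice. DRF changes, and the NRF change minus the DRF change, were fitted over all 56 mice. The numbers of genes past the threshold in NRF and in DRF thus rest on different estimates of the spread. With no read counts deposited, no count test was used. P-values are two-sided. Named genes were those past the threshold with non-overlapping groups and a mean log2(CPM + 1) of at least 1, up to 12 a direction, the 6 largest differences between regimens a direction, and list members. The rule for promoters asked for a motif in a clock or heat shock gene past the threshold in NRF and gave none, so those shown were chosen after the values were seen. The list members Malat1 and Neat1 were not matched. In data simulated for the ZT4 against ZT0 fit, 50 of 15992 genes were changed by each fold. Of these, 36% were recovered at 1.25-fold, 82% at 1.5-fold, 100% at 2-fold and 98% at 3-fold, and 8 unchanged genes also passed. The changed genes were drawn from those above a minimum mean level, so genes of low level are not covered. More genes were changed than passed in the real comparison, which eases the Benjamini-Hochberg threshold. Noise was drawn for each gene separately, without shifts shared across a library. Recovery in the real comparison may thus be lower. Alternatives were the compared groups alone, all 56 mice, the deposited scale, a pseudocount of 0.1, quantile normalization, removal of each library's trends, other filters, an intensity trend, array weights, a replicate block, ZT0 and ZT24 pooled, each mouse left out, and, added after seeing the data, fits without the ZT16 or ZT24 mice.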

Additional observations from a re-analysis of the deposited data

Results flagged for a closer look

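Single mice stood far from the other 3 of their group in 8 cases, by a gap that chance gives in about 1 in 20 groups. The search covered 70 named genes in both NRF groups, so several such gaps are expected by chance alone. On the log2(CPM + 1) scale, ZT0 replicate 1 was high for Hsp90aa1 (10.85), Hspa5 (8.94) and Hnrnpm (6.84), and ZT0 replicate 3 was low for Cercam (4.14). ZT4 replicate 2 was low for Hr (4.95) and Clock (6.19), and ZT4 replicate 4 was low for Gm10340 (0.94) and Phgdh (6.17).

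The change from ZT0 to ZT4 differed between NRF and DRF for 805 genes by the test of the difference (limma), and the named ones follow as NRF change minus DRF change on the log2 scale. Among the genes past the threshold in NRF, whose NRF change chose them, the difference was 1.004 for ID102640444, 0.64 for Heyl, 0.79 for Atp4a, 0.67 for ID105244832, 0.60 for Pigz, 0.53 for Amdhd2 and 0.37 for Gpr146. It was -0.70 for Uba6, -0.48 for Dnajc28, -0.53 for Ints8 and -0.49 for Fxr1. Besides ID102640444, the largest differences among genes past the threshold with a mean log2(CPM + 1) of at least 1 were 2.56 for Hif3a, 1.54 for Hr, 1.19 for Mt2, 1.01 for Lrrc29 and 0.95 for Pla2g4e, and -2.14 for Hspa1b, -1.41 for Zbtb40, -1.32 for Gm10340, -1.19 for Mab21l1, -1.08 for Chordc1 and -1.06 for Hspb1.

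Among the other chaperones it was -1.04 for Hspa1a, -0.62 for Hsph1, -0.32 for Hspa8, -0.71 for Dnajb1, -0.55 for Stip1 and -0.48 for Hsf1. In the endoplasmic reticulum it was -0.46 for Hspa5, -0.71 for Pdia4, -1.02 for Sdf2l1 and -0.80 for Creld2. The cold-inducible Cirbp had 0.88, and the clock outputs Dbp and Ciart had 0.44 and 0.53. Of the sterol genes, Insig1 had 0.88, Dhcr7 0.38 and Mvd 0.64. The splicing factors Hnrnpm and Srsf5 had -0.45 and 0.53, and Slc7a5 and Cpt1a had 0.41 and 0.30.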

How the results depend on the processing

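The count of 14 genes between ZT4 and ZT0 (limma) depended on which mice and which scale entered the fit, and the cause was not tested. It was 1 with only the 8 mice compared, 5 with all 56 mice, 5 without the ZT24 mice (chosen after seeing the data) and 6 on the deposited scale. It was 24 with quantile normalization, 50 with an intensity trend, 76 with array weights, 107 with each library's trends removed and 2151 with ZT0 and ZT24 pooled. Leaving out 1 mouse gave 2 to 106. Against ZT24, leaving out 1 mouse gave 3072 to 4765 genes, and removing trends gave 3153. The share of higher genes in that comparison was 49.3%, 25.3% on the deposited scale and 47.1% to 52.5% in the other fits. The regimens differed for 498 to 961 genes with 1 mouse left out, 1467 with trends removed and 1873 with array weights. Of 42 named genes whose regimens differed, 34 kept that call in every alternative run, 7 lost it without some 1 mouse, and Hspa8 lost it in 1 other alternative (limma adjusted p = 0.0589). None of the 42 changed sign. The direction of Per1 turned, from -0.04 to 0.0218 without ZT0 replicate 3 and 0.0114 without ZT0 replicate 4, and its lowest value with 1 mouse left out was -0.108.

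With a replicate block the count was 35 between ZT4 and ZT0 and 803 for the regimens. Same-numbered mice did not deviate together, with correlations of -0.0868, 0.0825, 0.00691 and 0.0531, so the numbers do not pair the mice. With 4 mice a group, changes can be missed, also above 1.5-fold. Hif3a had means of 2.93 CPM at ZT0 and 6.49 CPM at ZT4 in NRF, a ratio of 1.87 in CPM + 1, and did not pass (limma adjusted p = 0.0592).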
